A study of Homo sapiens with 6 samples.

Results

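The E2F transcription factor family, *E2F1* to *E2F8*, was followed in A2780 cells, an established human ovarian cancer line, after treatment with TH-588 (TH588), a first-generation inhibitor of the Nudix hydrolase MTH1 that also stalls cells in mitosis. The members were taken by gene symbol through their Ensembl identifiers, and all 8 were found among the 58336 genes counted. RNA was collected from 3 cultures given DMSO vehicle and from 3 given 6 µM TH588 for 48 h, in biological triplicates lettered A, B and C. Both groups are of this 1 line, and the labels name no other agent. Total counts lay between 77634048 and 99074175 in 5 libraries and came to 28537837 in TH588 replicate A, where the small nucleolar RNA *SNORD3A* took 21.9% of the counts, against 7.68% to 13.0% elsewhere. Each library gave between 74 and 8490 counts to each member, and all 8 members were among the 15844 genes that passed the filter on low counts. Markers of ovarian epithelium were mostly absent from this line: *PAX8*, *KRT7*, *CDH1* and *ESR1* had at most 3 counts in any library, while *KRT18* and *EPCAM* were detected. Of the listed markers of other cell types, *PTPRC*, *CD3E*, *LYZ* and *PECAM1* had at most 10 counts in any library. *COL1A1* was detected, with 69 to 537 counts per library, and *ALB* had 9 to 54.

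E2F proteins bind a short GC-rich element in the promoters of genes for DNA replication and cell cycle progression. *E2F1*, *E2F2* and *E2F3* encode activators that the retinoblastoma protein holds in check until G1 cyclin-dependent kinases phosphorylate it. *E2F4* and *E2F5* encode repressors that act with the related pocket proteins p107 and p130, *E2F6* encodes a repressor that works with a Polycomb complex, and *E2F7* and *E2F8* encode atypical members that bind DNA without a DP partner and repress E2F targets late in the cycle. Several E2F genes are themselves E2F targets.

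Promoters are shown because *E2F1* and *E2F2* fell steeply, *E2F3* fell little and *E2F7* did not pass the test, so that the letters upstream of each can be compared. Each is 300 bases from RefSeq on GRCh38.p14, from 250 before to 50 after an annotated start site, written 5′ to 3′ along the gene. Capitals mark the E2F words TTTCCCGC, TTTCCCGG, TTTCGCGC, TTTCGCGG, TTTGCCGC, TTTGCCGG, TTTGGCGC and TTTGGCGG on either strand.
E2F1, chr20:33686336-33686635, minus strand: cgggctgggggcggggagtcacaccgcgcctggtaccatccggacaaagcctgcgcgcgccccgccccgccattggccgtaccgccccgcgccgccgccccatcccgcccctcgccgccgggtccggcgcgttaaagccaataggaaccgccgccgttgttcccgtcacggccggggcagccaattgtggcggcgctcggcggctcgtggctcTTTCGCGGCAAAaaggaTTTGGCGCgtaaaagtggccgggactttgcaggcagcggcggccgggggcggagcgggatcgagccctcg
E2F2, chr1:23531184-23531483, minus strand: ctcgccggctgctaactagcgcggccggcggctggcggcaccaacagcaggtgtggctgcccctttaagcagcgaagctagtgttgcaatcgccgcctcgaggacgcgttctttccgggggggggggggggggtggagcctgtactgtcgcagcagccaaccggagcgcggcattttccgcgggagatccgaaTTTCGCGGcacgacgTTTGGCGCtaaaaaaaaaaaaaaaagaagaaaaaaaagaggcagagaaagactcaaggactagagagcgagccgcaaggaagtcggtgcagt
E2F3, chr6:20401629-20401928, plus strand: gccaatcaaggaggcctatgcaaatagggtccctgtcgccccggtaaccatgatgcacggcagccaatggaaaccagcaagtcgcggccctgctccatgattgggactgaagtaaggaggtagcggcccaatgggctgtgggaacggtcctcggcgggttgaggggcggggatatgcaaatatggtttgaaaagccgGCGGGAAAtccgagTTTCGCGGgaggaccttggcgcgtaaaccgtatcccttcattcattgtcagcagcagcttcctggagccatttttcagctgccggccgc
E2F7, chr12:77065520-77065819, minus strand: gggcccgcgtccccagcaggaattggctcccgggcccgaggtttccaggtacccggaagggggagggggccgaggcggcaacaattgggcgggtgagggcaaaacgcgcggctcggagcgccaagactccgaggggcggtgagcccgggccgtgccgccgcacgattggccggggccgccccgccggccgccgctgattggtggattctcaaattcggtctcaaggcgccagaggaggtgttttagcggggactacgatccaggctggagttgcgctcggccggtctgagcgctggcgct

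The *E2F1* promoter held 3 E2F words, of which the pair at bases -37 to -30 and -33 to -26 overlapped on opposite strands and the third lay at -20 to -13. In *E2F2* the words lay at -57 to -50 and -42 to -35, and in the first of the *E2F3* start sites at -53 to -46 and -39 to -32. TTTCGCGG was present in all 3 activator promoters, and *E2F1* and *E2F2* shared TTTGGCGC as well. *E2F6* also held 2 words, both TTTCCCGG, at -183 to -176 and -78 to -71. No word was found in *E2F4*, *E2F7* or the second *E2F3* start site. The promoters printed above were picked by the changes of their genes. Not printed are *E2F6*, with 2 words and a log2 fold change of -0.41, and *E2F4*, with none and -0.52. Whether words go with the changes of members was not tested. Of all 35116 promoters of this length, 6.19% held a word and 0.379% held 2 or more. The cell cycle homology element TTTGAA, present in 15.2% of promoters, was found once, in the first *E2F3* promoter, and CCAAT, present in 34.6%, occurred 4 times in *E2F7*, 4 times in the first *E2F3* promoter and 3 times in *E2F1*. RefSeq promoters were matched for 6 of the 8 members, *E2F5* and *E2F8* being unmatched. A match is only a match of letters and does not show that a factor was bound.

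**Figure D1:**
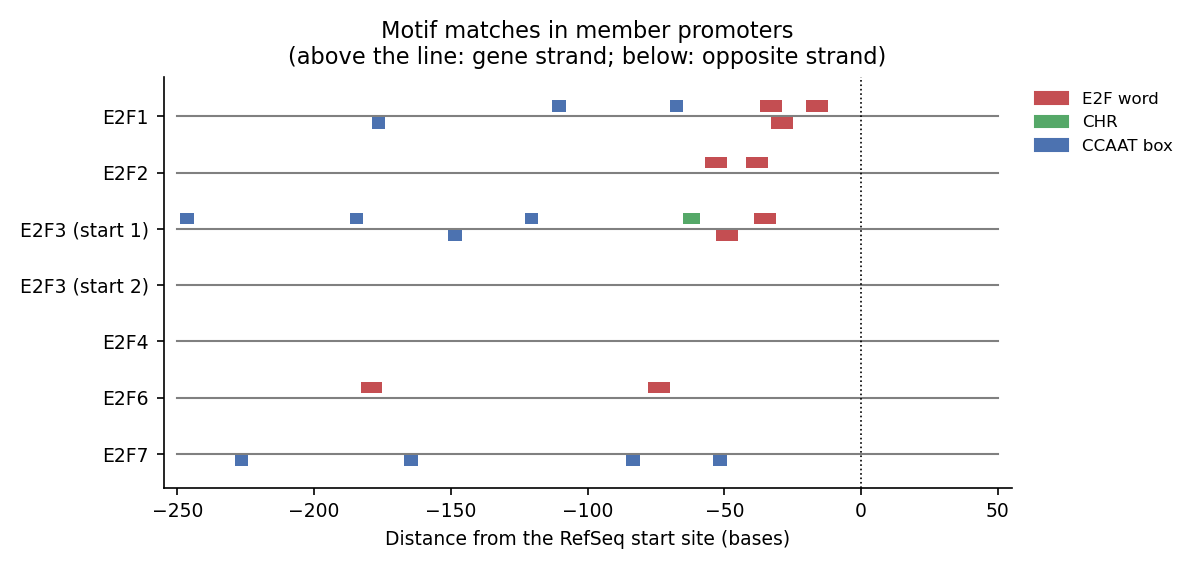
Positions of E2F words, TTTGAA (CHR) and CCAAT matches in the promoters of 6 members, with the distance from the RefSeq start site in bases on the x axis. The 3 activators hold their E2F words within 57 bases of the start site, *E2F6* holds 2 farther upstream, and *E2F4* and *E2F7* hold none.

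To find which members changed with TH588, the counts of all 15844 genes entered edgeR's quasi-likelihood test, with Benjamini-Hochberg adjustment. All 3 activators fell, as did 3 of the 5 repressors, and no member rose, where 24.2% of all genes tested were called higher and 9.75% by more than 2-fold. *E2F8*, *E2F2* and *E2F1* fell by more than 2-fold, *E2F4*, *E2F6* and *E2F3* by less, and *E2F5* and *E2F7* did not pass the threshold. The 6 lower members are read against the 25.3% of all genes tested that were called lower (49.6% called in either direction), and the 3 past 2-fold against 4.76% of all genes. The CPM of the groups did not overlap for 7 members, against 57.7% of all genes. With groups of 3, the smallest p of an exact two-sided permutation test is 0.1, so calls rest on the model fitted across genes. In bulk RNA, fewer cells expressing a gene and less RNA per cell cannot be told apart.

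*E2F1* (ENSG00000101412), the founding activator, lies on chromosome 20 of GRCh38 from 33675683 to 33686404 on the minus strand. It stood at 18.8, 18.8 and 18.2 CPM with DMSO, in the order A, B, C used for every gene, and at 6.50, 7.89 and 5.70 CPM with TH588. CPM are counts scaled to library size after TMM normalization. Every TH588 library thus lay far below every DMSO library. The group means were 18.6 ± 0.326 and 6.70 ± 1.10 CPM (SD, n = 3 each). The log2 fold change was -1.47 (SE 0.13, adjusted p = 2.24e-06 from edgeR's test).

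*E2F2* (ENSG00000007968), a second activator, lies on chromosome 1 from 23506430 to 23531220 on the minus strand. It stood at 13.1, 10.6 and 11.8 CPM with DMSO and at 2.76, 2.94 and 2.30 CPM with TH588, the last group resting on 74, 320 and 192 counts. Its TH588 mean was 22.5% of its DMSO mean, a log2 fold change of -2.15 (SE 0.14, adjusted p = 2.86e-07 from edgeR's test). Only 28 of the 15844 genes tested had a lower log2 fold change.

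*E2F3* (ENSG00000112242), the remaining activator, lies on chromosome 6 from 20401906 to 20493715 on the plus strand and makes its long and short proteins from separate start sites, which counts per gene do not tell apart. It stood at 25.1, 28.6 and 26.2 CPM with DMSO and at 20.8, 20.8 and 21.0 CPM with TH588. The groups did not overlap, but the gap was small. Its log2 fold change was -0.35 (SE 0.09, adjusted p = 0.00596 from edgeR's test), and when only library size was normalized for it was -0.24 and no longer passed (adjusted p = 0.0931). That scaling moved the median of all genes from 0.019 to 0.126 on the log2 scale.

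*E2F4* (ENSG00000205250), the main repressor of resting cells, lies on chromosome 16 from 67192169 to 67198918 on the plus strand. It stood at 103, 86.9 and 90.6 CPM with DMSO and 60.4, 73.9 and 61.2 CPM with TH588. Its log2 fold change was -0.52 (SE 0.10, adjusted p = 0.000963 from edgeR's test).

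*E2F5* (ENSG00000133740), its closest relative, lies on chromosome 8 from 85177225 to 85217158 on the plus strand. It stood at 26.0, 27.9 and 28.5 CPM with DMSO and 23.7, 21.5 and 25.1 CPM with TH588. The groups did not overlap, yet its log2 fold change of -0.23 missed the threshold (95% confidence interval -0.43 to -0.03, adjusted p = 0.0564 from edgeR's test). It was called with limma-voom at an adjusted p of 0.0477. Exons of genes on the opposite strand, chiefly *RBIS*, cover 18.6% of its exon bases, and the library kit does not mark strand, so its value is uncertain.

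*E2F6* (ENSG00000169016), the Polycomb-linked repressor, lies on chromosome 2 from 11444375 to 11466177 on the minus strand. It stood at 22.8, 25.6 and 24.8 CPM with DMSO and 20.6, 17.3 and 17.4 CPM with TH588. TH588 replicate A, the shallowest library, was nearest to the DMSO libraries. The log2 fold change was -0.41 (SE 0.10, adjusted p = 0.00532 from edgeR's test). Its processed copies drew few reads, at most 21 counts per library for *E2F6P1*, 5 for *E2F6P2* and 1 for *E2F6P3*, against 552 to 2320 for the gene itself. How reads that match several genes were counted is not given in the sources used here.

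The atypical members parted. *E2F8* (ENSG00000129173) lies on chromosome 11 from 19224063 to 19241620 on the minus strand, and it stood at 35.1, 30.8 and 32.8 CPM with DMSO and at 5.53, 5.82 and 5.44 CPM with TH588. Its TH588 mean was 17.0% of its DMSO mean, with a log2 fold change of -2.55 (SE 0.10, adjusted p = 1.40e-08 from edgeR's test), and only 14 genes of 15844 had a lower one. *E2F7* (ENSG00000165891) lies on chromosome 12 from 77021247 to 77065580 on the minus strand, and it stood at 20.4, 21.1 and 20.7 CPM with DMSO and at 20.2, 24.7 and 22.2 CPM with TH588. Its groups overlapped, and its log2 fold change of 0.11 did not pass the threshold (95% confidence interval -0.10 to 0.33, adjusted p = 0.359 from edgeR's test). The upper end of that interval leaves room for a small rise, and the lower end lies far above the values of *E2F1*, *E2F2* and *E2F8*. The count ratio of *E2F8* to *E2F7* within a library was 1.72, 1.46 and 1.58 with DMSO and 0.274, 0.235 and 0.245 with TH588, a ratio that library scaling cannot move.

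**Figure D2:**
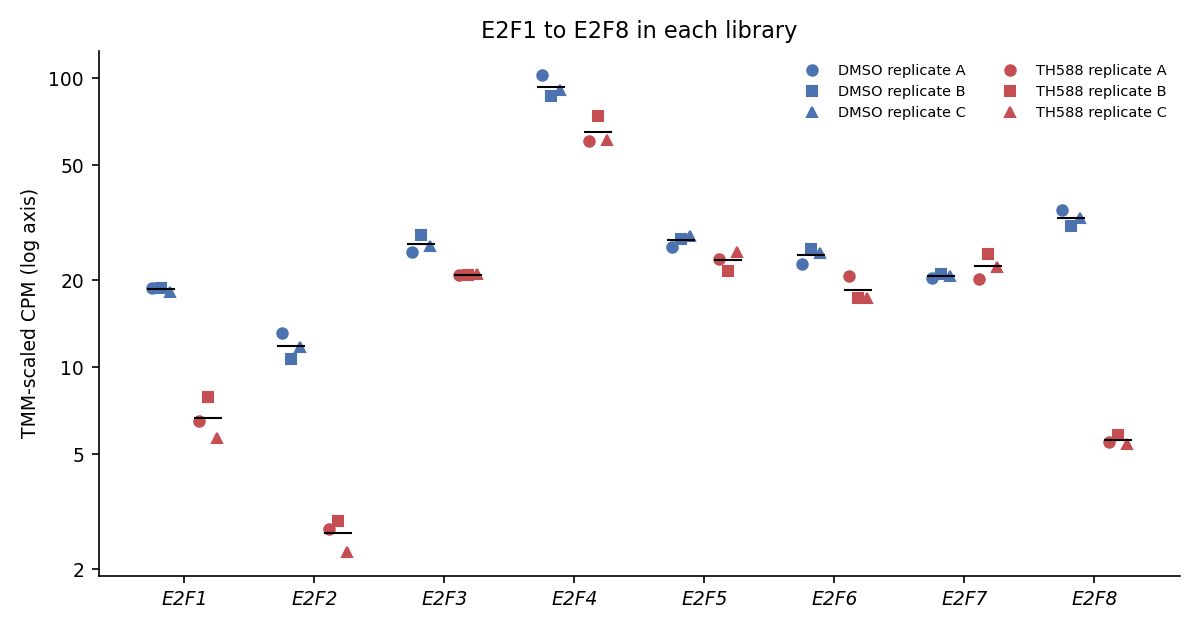
TMM-scaled CPM of each member in each of the 6 libraries on a log axis, with DMSO in blue, TH588 in red, a marker shape for each replicate letter and a bar at the mean of 3. *E2F1*, *E2F2* and *E2F8* stand clear of their DMSO values with TH588, while the groups of *E2F7* overlap.

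Without TH588 replicate A, the shallow library, the same 6 members were called. The log2 fold changes were then -2.53 for *E2F8*, -2.16 for *E2F2*, -1.44 for *E2F1*, -0.48 for *E2F6*, -0.46 for *E2F4*, -0.34 for *E2F3*, -0.23 for *E2F5* and 0.19 for *E2F7*.

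The division into activators and repressors did not sort the changes. The activators had log2 fold changes from -2.15 to -0.35 with a median of -1.47, and the 5 repressors ranged from -2.55 to 0.11 with a median of -0.41. The range of the repressors, 2.67, was wider than the distance between the medians, -1.06 as activators minus repressors. No test was made between the classes, since members are not replicates of a class. Over all genes tested the median was 0.019. Among activators, the count ratio of *E2F1* to *E2F3* was 0.750, 0.656 and 0.695 with DMSO and 0.312, 0.378 and 0.271 with TH588, and that of *E2F2* to *E2F3* averaged 0.448 with DMSO and 0.128 with TH588. *E2F1* also lost ground to *E2F4*, with a count ratio of 0.183, 0.216 and 0.201 with DMSO and 0.108, 0.107 and 0.0932 with TH588.

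**Figure D3:**
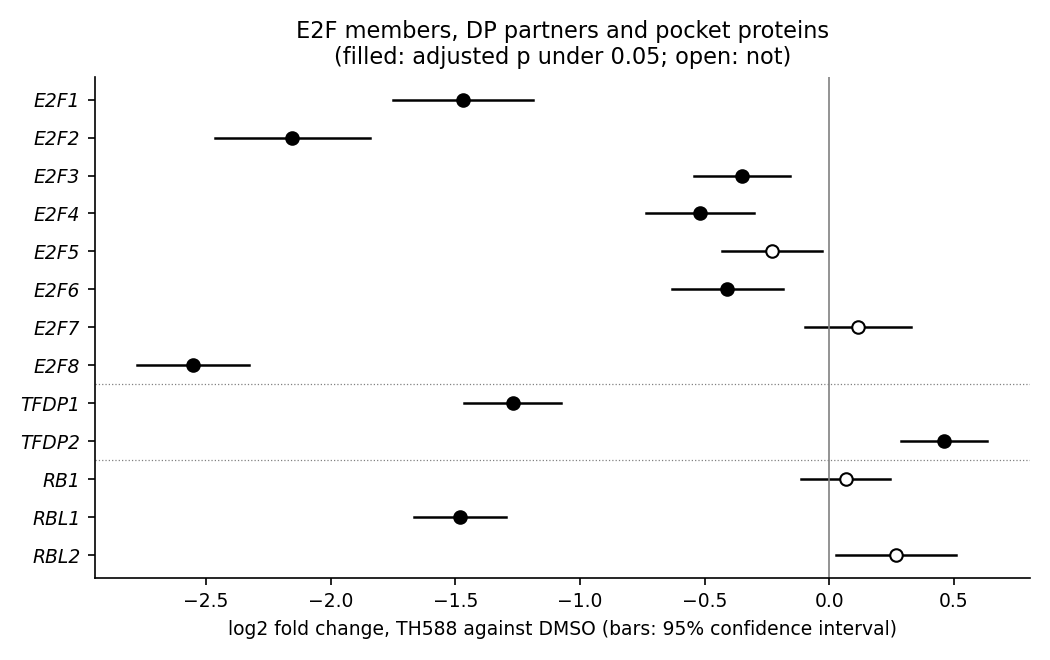
Log2 fold changes of the 8 members, 2 DP partners and 3 pocket proteins on the x axis, with bars for the 95% confidence interval, filled where the adjusted p is under 0.05. *E2F8*, *E2F2*, *RBL1*, *E2F1* and *TFDP1* lie below -1, and *TFDP2* is the one filled point above 0.

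To compare levels between members, counts were divided by gene length and expressed as a share of the summed TPM, counts scaled to gene length and depth, of the 8 genes, which cancels library scaling. *E2F4* held the largest share, 41.6% ± 2.21 with DMSO and 46.8% ± 2.52 with TH588 (SD, n = 3 each). *E2F8* and *E2F1* came next with DMSO, at 12.6% ± 0.420 and 11.9% ± 0.388, and their ranges overlapped. With TH588 the share of *E2F8* was 3.49% ± 0.0940 and that of *E2F1* was 6.87% ± 0.727 (SD, n = 3 each). *E2F7* moved from 5.25% ± 0.264 to 9.14% ± 0.529 of the family without a called change of its own. *E2F2* was lowest in both groups, at 3.46% ± 0.249 and 1.26% ± 0.112. The order by mean share was *E2F4*, *E2F8*, *E2F1*, *E2F6*, *E2F3*, *E2F5*, *E2F7*, *E2F2* with DMSO, where the ranges of *E2F8* and *E2F1*, of *E2F6* and *E2F3*, and of *E2F3* and *E2F5* overlapped. With TH588 it was *E2F4*, *E2F6*, *E2F3*, *E2F5*, *E2F7*, *E2F1*, *E2F8*, *E2F2*, and neighbours overlapped from *E2F6* down to *E2F7*, while *E2F7* lay above *E2F1* in every library. The places of *E2F5* and *E2F1* depended on the lengths used. *E2F5* has 5928 bases in the count table and 1964 in the canonical GENCODE v44 transcript, and its DMSO share was 7.40% with the first lengths and 15.1%, next to *E2F4* in the order, with the second. *E2F1* held 11.9% and 7.46% with DMSO and 6.87% and 4.06% with TH588, and came below *E2F6* in the DMSO order with canonical lengths. The summed CPM of the family was 256 ± 7.31 with DMSO and 165 ± 8.40 with TH588 (SD, n = 3 each).

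**Figure D4:**
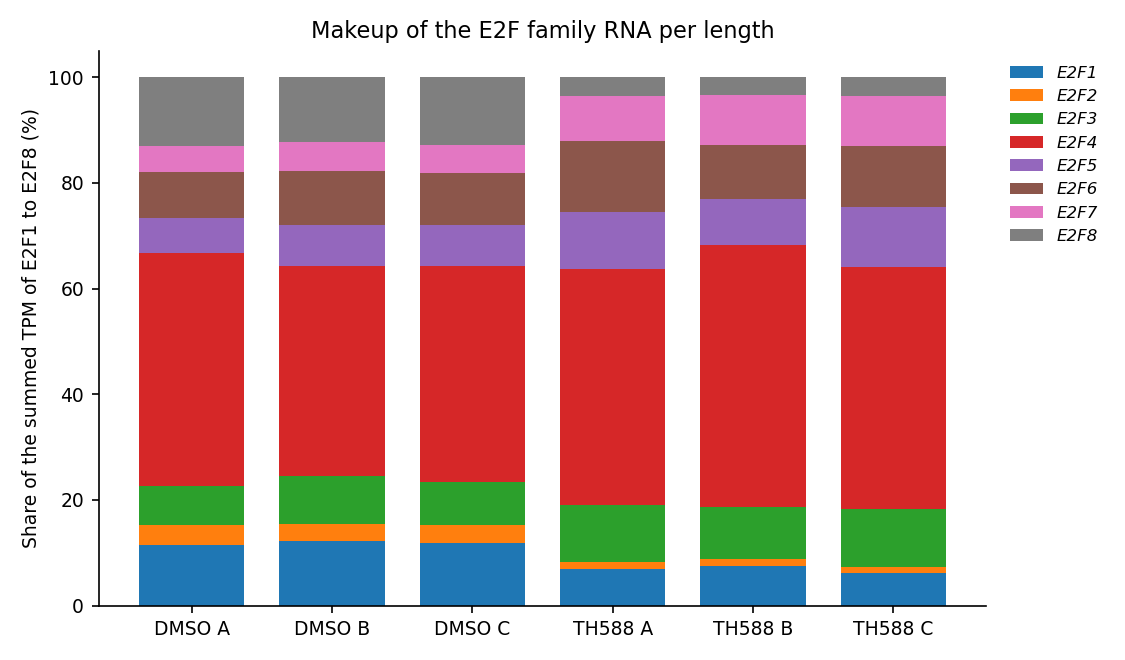
Share of the summed TPM of *E2F1* to *E2F8* held by each member in each library, in percent, with 1 bar per library. The *E2F8* segment narrows from between 12.2% and 13.0% with DMSO to between 3.38% and 3.55% with TH588, and *E2F4* is the widest segment throughout.

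DP proteins pair with E2F1 to E2F6 to bind DNA, and their genes moved apart. *TFDP1*, which encodes the common partner DP1, stood at 183, 169 and 177 CPM with DMSO and 66.3, 80.9 and 71.8 CPM with TH588. Its log2 fold change was -1.27 (SE 0.09, adjusted p = 4.03e-07 from edgeR's test). *TFDP2*, which encodes DP2, stood at 31.7, 30.2 and 33.0 CPM with DMSO and 42.4, 44.1 and 44.2 CPM with TH588, so that it rose by a log2 fold change of 0.46 (SE 0.08, adjusted p = 0.000405). Every library of each pair of groups kept apart, in opposite directions. The count ratio of *TFDP1* to *TFDP2* averaged 5.57 with DMSO and 1.67 with TH588. *TFDP3*, a testis gene, had at most 3 counts in any library and was not tested. The promoters of *TFDP1* and *TFDP2* each held 1 E2F word, in *TFDP2* at 1 of its 3 start sites.

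Among the pocket proteins, which bind and silence E2F, only *RBL1* passed the threshold. *RBL1*, which encodes p107 and is itself a classic E2F target, stood at 46.1, 45.3 and 47.0 CPM with DMSO and 15.6, 17.5 and 16.4 CPM with TH588, a log2 fold change of -1.48 (SE 0.08, adjusted p = 8.92e-08 from edgeR's test). Its promoter held TTTCGCGC at -26 to -19 and TTTGGCGC at -16 to -9. *RB1*, the gene for the retinoblastoma protein, averaged 102 ± 5.99 CPM in the DMSO group and 106 ± 6.54 CPM in the TH588 group (SD, n = 3 each). Its log2 fold change of 0.07 did not pass (95% confidence interval -0.11 to 0.24). *RBL2*, which encodes p130, stood at 31.2, 31.1 and 28.4 CPM with DMSO and at 29.9, 38.6 and 40.3 CPM with TH588. TH588 replicate A lay among the DMSO libraries, and the log2 fold change of 0.27 missed the threshold (adjusted p = 0.0606 from edgeR's test). Without TH588 replicate A it was 0.40 and passed (adjusted p = 0.00151). Exons on the opposite strand cover 18.2% of the exon bases of *RBL2*.

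The remaining pathway genes were taken from lists. Of the 36 replication and cell cycle genes listed as E2F targets of G1/S, all 36 were lower, 32 of them by more than 2-fold. Over all genes tested, 25.3% were called lower and 4.76% were lower by more than 2-fold. The list was written by hand with earlier results of these data known. Its median log2 fold change was -1.40 and its range -2.21 to -0.70. The lowest were *CLSPN*, which encodes a mediator of checkpoint signalling (-2.21), *CCNE2*, a cyclin that drives entry into S phase (-2.06), and *CDC6*, an origin licensing factor (-1.95). *CCNE2* shares 37.1% of its exon bases with other genes, chiefly *INTS8* on the opposite strand. An E2F word was found in the promoters of 20 of the 31 listed genes that had a RefSeq promoter. Among all tested genes with such a promoter the share was 12.0%, and the listed genes were picked as E2F targets. In the MuvB core, which joins E2F4 or E2F5, DP and p107 or p130 in the repressive DREAM complex, *LIN9* (-1.19), *LIN54* (-0.72) and *LIN52* (-0.53) fell, *LIN37* rose (0.49; 54.0% of its exon bases are shared with other genes on either strand, so its value is uncertain) and *RBBP4* did not pass (-0.20). Upstream of RB, 13 genes were tested, of which 3 rose and 6 fell, against 24.2% and 25.3% of all genes tested. *CDKN1A*, which encodes the kinase inhibitor p21, had the largest rise (log2 fold change 4.71). The kinase inhibitor genes *CDKN1C* (2.46) and *CDKN2D* (0.66) rose too, and *CCNE2*, *CDKN2C* (-1.18) and *CCNE1* (-1.05) fell most. The size of the *CDKN1C* change is uncertain (SE 0.42), since it rests on 40, 15 and 13 counts with DMSO. *CDK6* and *CDKN2B* were not tested for want of counts.

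Partners of E2F6 in the Polycomb complex PRC1.6 were called in 9 of 12 cases, against 49.6% of all genes tested: 7 were lower and 2 higher, none by more than 2-fold, with a median log2 fold change of -0.37. *PCGF6*, the subunit that defines the complex, fell by 0.85 on the log2 scale, *WDR5* by 0.75 and *CBX3* by 0.71, while *RING1* (0.48) and *YAF2* (0.33) rose. *YAF2* did not pass without TH588 replicate B (adjusted p = 0.0690 from edgeR's test) or with the replicate letters as a block (0.0518). Of 9 genes listed as targets through which E2F1 can promote cell death, 5 were lower and 3 higher, against 25.3% and 24.2% of all genes tested. *BCL2L11*, which encodes the BH3-only protein BIM, fell by 0.95 on the log2 scale (SE 0.22). It had 20 to 173 counts per library, and 10.9% of its exon bases are shared with a gene on the opposite strand. *TP73*, a relative of p53, fell by 0.53 on the log2 scale and *TP53BP2* by 0.44. *TP53INP1* (3.36), *BBC3*, which encodes the BH3-only protein PUMA (2.75), and *APAF1*, the core of the apoptosome (0.36), rose. The size of the *BBC3* change is uncertain (SE 0.28), since it rests on 35, 49 and 24 counts with DMSO. *TP53INP1* and *BBC3* are also targets of p53. *LIN37*, *RBBP4*, *CDKN1C*, *CDKN2D*, *BCL2L11* and *BBC3* fell outside the rule for naming genes and were named after their values were seen. *APAF1* did not pass without DMSO replicate A, DMSO replicate B or TH588 replicate C, and *TP73* did not pass without DMSO replicate A or TH588 replicate C, nor with library size only (adjusted p from edgeR's test between 0.0513 and 0.0587 in these fits).

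**Figure D5:**
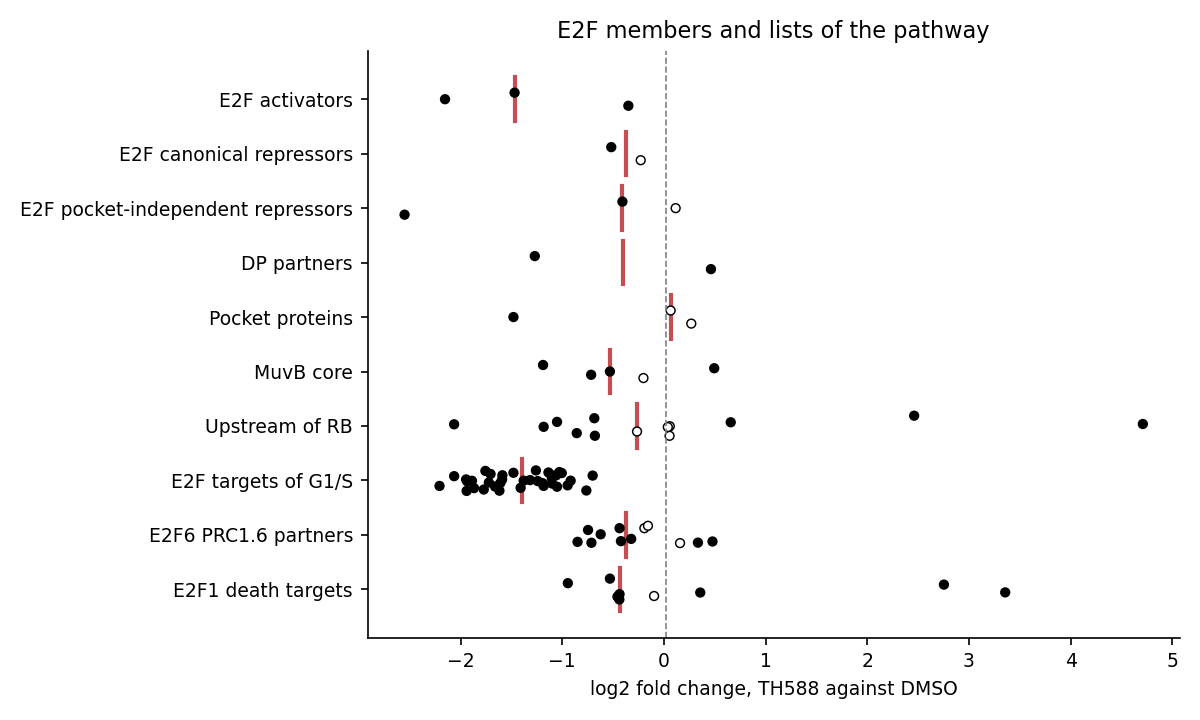
Log2 fold changes of the members and of the pathway lists on the x axis, 1 point per gene, filled where the adjusted p is under 0.05, with a red bar at the median of each list and a dashed line at the median of all genes, 0.019. All 36 E2F targets of G1/S lie below -0.70, and *CDKN1A*, upstream of RB, lies farthest to the right at 4.71.

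The genes most like each member were found by the root mean square distance between log2 CPM profiles over the 6 libraries, each centred on its own mean. The 9761 genes whose mean log2 CPM reached 2 were searched. *CLSPN* was nearest to both *E2F2* (distance 0.107) and *E2F8* (0.177), and the next gene to *E2F8* was *E2F2* itself (0.219). *E2F1* was nearest to the centromere genes *CENPM* (0.0694) and *CENPK* (0.0843). The nearest to *E2F3* were *TTL* and *DCPS*, to *E2F4* *NUP62* and *IQGAP3*, to *E2F5* *MYL12A* and *XRN2*, to *E2F6* *UBE2J1* and *MTCH2*, and to *E2F7* *GUK1* and *NEU3*, all at distances from 0.0152 to 0.0291. The libraries share the treatment contrast, so likeness here is mostly likeness in the size of the change.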

How the data were processed

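The material is given as polyA RNA of A2780 cells, sequenced in 6 libraries, 3 per treatment. The small nucleolar RNA *SNORD3A* was the top gene in every library, and how well polyA RNA was selected was not tested. According to the methods and the labels, the authors aligned the reads to GRCh38 with TopHat and counted them per gene with featureCounts 1.4.6, and deposited the raw counts. Gene models are given as UCSC's, but the count table carries Ensembl identifiers, of which 57754 of 58336 matched a symbol. The libraries were made with an unstranded kit.

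Counts were filtered with edgeR's default, normalized by TMM and compared with the quasi-likelihood test (edgeR 4.0.16, R 4.3.3) without a replicate term, with the threshold at a Benjamini-Hochberg adjusted p of 0.05. The authors used DESeq2, which is an alternative here (DESeq2 1.42.0), beside limma-voom (limma 3.58.1). CPM are counts over the TMM-scaled library size. SE is the log2 fold change over the square root of the F statistic. The members and lists were chosen with earlier results of these data known.

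Named genes are the members, DP partners, pocket proteins and *CDKN1A*, of every other list the 3 highest and 3 lowest called log2 fold changes where the mean log2 CPM reached 2, and the 2 nearest genes to each member. The cell type markers and germline genes given with values were named beside this rule. Of these, *EPCAM*, *LYZ*, *PECAM1*, *COL1A1*, *ALB*, *STAG3* and *SMC1B* were named after their values were seen. A gene that the rule names is not reported here. Replicates of a group differed by more than sampling noise (chi-square per degree of freedom from 25.5 to 181), so each library counts once. The replicates are biological by the methods, and the source of each culture is not given, so p-values measure the spread between these cultures. Counts of 0 allow up to 3 counts, or 0.0276 to 0.112 CPM, for counting error only.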

Additional observations from a re-analysis of the deposited data

How the results depend on the processing

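Under the 15 alternatives to the comparison (DESeq2 size factors, library size only, DESeq2, limma-voom, no low-count filter, a minimum of 10 counts in each library, the replicate block, an adjusted p under 0.01, the 10 most abundant genes removed and each of the 6 libraries left out), between 5 and 7 members were called, all of them lower, and genes called over the whole table numbered from 5831 to 8225 against 7852. With library size only, 60.4% of the calls were higher, against 48.9%. Members called numbered 6 in each fit that left out 1 library. *E2F8* stayed between -2.60 and -2.44, *E2F2* between -2.25 and -2.03 and *E2F1* between -1.62 and -1.34 over all 15, and *E2F7* between 0.04 and 0.23 without passing. None of the members and pathway genes named by the rule changed direction under any of them. *RBL2* passed in 5, among them DESeq2 and limma-voom. Of the 79 pathway genes tested outside the family, 67 were called, against 49.6% of all genes, and from 62 to 70 under the alternatives. The median of the activators minus that of the repressors lay between -1.25 and -0.98.

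Deviations from the group means of libraries that share a replicate letter correlated at -0.29, -0.32 and -0.02 for A, B and C. None of these values was positive. They cannot decide whether the letters mark matched cultures, since deviations within a group cancel out and each letter gives a single value. With the replicate block, 7195 genes, 6 members and 66 pathway genes were called, and no member changed its call, while *YAF2* no longer passed (adjusted p = 0.0518 from edgeR's test). With the length of the canonical transcript, an alternative chosen after seeing the data, the share of *E2F4* in the family with DMSO was 47.7% against 41.6%, since that length is shorter for this gene. Counts were lowest for *E2F2*, with 74 in TH588 replicate A. *E2F3* lost its call with library size only, and *E2F5* gained one with limma-voom.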

Other observations

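Among all tested genes with a RefSeq promoter, 12.0% of 11126 held an E2F word within the 300 bases around a start site. The share was 16.1% of the 3166 genes called lower, 10.9% of the 5098 genes not called and 9.29% of the 2862 genes called higher. Past 2-fold, it was 26.1% of the 540 lower genes and 7.74% of the 1060 higher genes. These shares are descriptions, and GC content and the number of start sites per gene, which bear on the chance of a match, were not set equal.

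Of 3 genes listed as kept silent by E2F6 outside the germ line, 2 were tested, too few to say how they moved as a group. *STAG3*, a meiotic cohesin subunit, averaged 1.43 ± 0.430 CPM in the DMSO group and 3.96 ± 0.181 CPM in the TH588 group (SD, n = 3 each). It rose by 1.47 on the log2 scale (edgeR's test, adjusted p = 0.000103), and 32.3% of its exon bases are shared with other genes. *SMC1B*, another meiotic cohesin subunit, stood at 0.389, 0.642 and 0.395 CPM with DMSO and between 0 and 0.331 CPM with TH588, where replicate A had no count, and did not pass the threshold (adjusted p = 0.191). *SLC25A31* had at most 4 counts in any library. *E2F6* itself stood at 75.7% of its DMSO mean, and a link between its level and these genes was not tested. Among epithelial markers, *EPCAM* rose from 0.644 ± 0.212 to 4.74 ± 0.350 CPM and *KRT18* from 3.56 ± 0.373 to 6.54 ± 0.435 CPM (SD, n = 3 each), with log2 fold changes of 2.87 and 0.88, while the other 7 on that list were not tested for want of counts.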
